A study of Homo sapiens with 6 samples.

Results

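A set of 10 genes of pre-mRNA splicing was followed through every library: HNRNPH1, HNRNPA1, HNRNPA2B1, HNRNPK, HNRNPU, HNRNPD, HNRNPDL, SRSF3, SRSF5 and SRSF11. They were chosen by name, with results of these data known, as 10 of the 57500 genes listed, and were found through their Ensembl identifiers. All 10 were among the 3180 genes with enough counts to be tested. Because the choice followed the data, their levels and differences below are a description, with no test.

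The RNA came from mitochondria isolated with a kit from HepG2 cells, a human liver carcinoma line, labelled wild type. The cells had been exposed for 48 h to GenX, a short-chain perfluoroalkyl ether acid, at 0, 10 or 100 µM, and the 0 µM cells received the vehicle DMSO. Each dose had 2 libraries, and the labels put all 6 in 1 batch without saying that they came from separate cultures, so a p-value sees no more than the spread of these libraries, possibly a technical one. The design is directed at how GenX alters mitochondrial RNA, whereas the genes described here are encoded in the nucleus.

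Heterogeneous nuclear ribonucleoproteins (hnRNPs) coat nascent transcripts and often act against the use of nearby splice sites, although some promote it. Serine/arginine-rich (SR) proteins bind exonic enhancers and recruit the spliceosome. Many genes of both families control their own level by including an exon that sends the transcript to decay. The messages themselves are made in the nucleus and translated in the cytosol, so in a mitochondrial preparation they are among the non-mitochondrial RNA.

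The start regions of 4 genes are shown because the results turn on them: HNRNPH1 was the leading gene of the 10 in both controls, SRSF3 and SRSF11 joined it in the first control, and HNRNPA2B1 was highest at 10 µM. Each is the RefSeq window of 250 bases before to 50 after a transcription start on GRCh38.p14, given on the gene's own strand. HNRNPH1 is at chr5:179623622-179623921 (minus strand), SRSF3 at chr6:36594112-36594411 (plus), SRSF11 at chr1:70205446-70205745 (plus) and HNRNPA2B1 at chr7:26200697-26200996 (minus). Capitals mark matches, on either strand, to the TATA box letters TATAAA, the CCAAT box letters CCAAT, the ETS-type letters CCGGAAG and the cAMP response element half-site TGACG.
HNRNPH1: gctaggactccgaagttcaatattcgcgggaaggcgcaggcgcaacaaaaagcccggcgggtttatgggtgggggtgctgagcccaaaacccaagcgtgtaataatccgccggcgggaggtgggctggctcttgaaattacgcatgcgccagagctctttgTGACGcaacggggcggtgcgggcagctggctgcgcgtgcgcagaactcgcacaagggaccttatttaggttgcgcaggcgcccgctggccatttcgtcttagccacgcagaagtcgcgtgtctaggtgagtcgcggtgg
SRSF3: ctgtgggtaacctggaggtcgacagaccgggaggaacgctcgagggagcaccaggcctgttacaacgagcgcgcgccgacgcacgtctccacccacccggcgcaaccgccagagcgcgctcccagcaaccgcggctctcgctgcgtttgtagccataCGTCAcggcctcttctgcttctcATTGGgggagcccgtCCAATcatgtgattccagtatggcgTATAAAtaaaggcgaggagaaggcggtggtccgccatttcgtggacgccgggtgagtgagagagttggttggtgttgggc
SRSF11: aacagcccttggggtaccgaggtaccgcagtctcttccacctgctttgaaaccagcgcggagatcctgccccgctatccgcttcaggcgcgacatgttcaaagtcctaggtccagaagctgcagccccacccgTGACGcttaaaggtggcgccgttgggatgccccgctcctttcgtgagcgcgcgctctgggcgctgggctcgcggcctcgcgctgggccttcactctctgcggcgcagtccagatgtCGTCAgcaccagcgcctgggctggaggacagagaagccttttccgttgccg
HNRNPA2B1: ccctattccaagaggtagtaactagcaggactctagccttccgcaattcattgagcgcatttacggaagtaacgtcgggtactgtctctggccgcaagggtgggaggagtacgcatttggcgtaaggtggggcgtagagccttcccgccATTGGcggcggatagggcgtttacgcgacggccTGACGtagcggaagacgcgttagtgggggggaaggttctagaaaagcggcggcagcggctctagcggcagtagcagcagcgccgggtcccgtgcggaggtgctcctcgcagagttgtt

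Of the 10 genes, 9 had such a window, and HNRNPA1 had none. HNRNPH1 uses several starts, and 18 of its 50 GENCODE v29 transcripts begin inside the window shown. The SRSF3 window held TATAAA 1 time, CCAAT 2 times and TGACG 1 time, and was the only one of the 4 with TATAAA. SRSF11 held TGACG 2 times, HNRNPH1 held it 1 time with none of the other letters, and HNRNPA2B1 held CCAAT 1 time and TGACG 1 time. Over all 35116 RefSeq windows of this length, TATAAA was in 11.5%, CCAAT in 34.6%, CCGGAAG in 10.3% and TGACG in 24.6%. All 9 windows held TGACG. They were also rich in G and C, 61.3% in HNRNPH1 against a median of 58.7% over all windows, and matches on the 2 strands can overlap. In the deposited tables, on GRCh38, HNRNPH1 spans chr5:179614178-179634784, SRSF3 chr6:36594353-36605600, SRSF11 chr1:70205682-70253052 and HNRNPA2B1 chr7:26189927-26201529. A match is a description of letters and not a binding site.

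Depth set what could be seen. Nuclear genes, meaning all those not on mitochondrial DNA, received 230210 and 54502 counts with DMSO, 24505 and 11406 with 10 µM and 2064527 and 1293961 with 100 µM GenX, a 181-fold range. MtDNA genes took 4.35% and 10.4% of all counts with DMSO, 43.7% and 61.1% with 10 µM and 3.58% and 3.32% with 100 µM GenX. Levels are therefore given as a percent of nuclear counts, since CPM, counts scaled to the total of the whole library, also move with the mtDNA share. A gene without a count could lie anywhere below 3 counts, which is 0.00130% and 0.00550% with DMSO, 0.0122% and 0.0263% with 10 µM and 0.000145% and 0.000232% with 100 µM GenX. Replicates differed by more than sampling noise in every group, with a chi-square per degree of freedom of 39.4 between the DMSO libraries, 12.9 between the 10 µM and 35.2 between the 100 µM libraries.

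HNRNPH1, whose protein binds runs of G in pre-mRNA, had 1921 and 118 counts with DMSO, 0 and 0 with 10 µM and 722 and 468 with 100 µM GenX. As a share of nuclear counts this was 0.834% and 0.217% with DMSO, below 0.0122% and 0.0263% with 10 µM, and 0.0350% and 0.0362% with 100 µM GenX. The groups did not overlap: both 10 µM libraries were empty, both controls were the highest, and both 100 µM libraries lay between. In control replicate 1 HNRNPH1 ranked 8th of all nuclear genes by counts, and in control replicate 2 it ranked 73rd. At 100 µM it ranked 529 and 537. The 2 libraries at 100 µM differed 1.03-fold, whereas control replicate 1 was 3.85-fold above control replicate 2 (95% counting interval 3.20 to 4.68).

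Taken over pooled counts, HNRNPH1 was at least 85.7-fold lower at 10 µM than in the controls, with the empty group set at 3 counts. The bound was 99.9-fold against control replicate 1 alone and 25.9-fold against control replicate 2 alone. At the share of the controls, the first 10 µM library would have held 204 counts (by replicate 1) or 53.1 counts (by replicate 2), and the second 95.2 or 24.7 counts. Against the 100 µM libraries the gap is less well resolved: their shares would have given 8.57 and 8.86 counts in the first 10 µM library and 3.99 and 4.13 in the second. HNRNPH1 was at least 4.24-fold higher at 100 µM than at 10 µM over pooled counts. At 100 µM it was 20.2-fold lower than in the pooled controls (18.8 to 21.7), 23.6-fold lower than replicate 1 and 6.11-fold lower than replicate 2. These intervals cover counting error only.

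An empty row was common at the depth of the 10 µM libraries. Of 3040 tested nuclear protein-coding genes outside the 10, 1237 (40.7%) had no count in either 10 µM library. Outside the 10, 38 nuclear genes held at least 0.1% of nuclear counts in both controls, and 3 of these had no count at 10 µM. That limit sets no upper level, and a zero is less likely the more abundant a gene. The 38 are therefore no measure of how unusual the HNRNPH1 zeros are. The 3 were ACSL5, AHNAK and ENAH, and both the limit of 0.1% and the names were chosen after their values were seen. MALAT1, a long RNA retained in nuclear speckles where splicing factors gather, made up 14.1% and 5.15% of nuclear counts with DMSO, 0.0694% and 0.114% with 10 µM and 2.99% and 2.69% with 100 µM GenX. NEAT1, the scaffold of paraspeckles, stood at 0.414% and 0.932% with DMSO, 0.0163% and 0.0263% with 10 µM and 0.486% and 0.490% with 100 µM GenX. MALAT1 had the same order of groups as HNRNPH1, and its part in the result was not tested. The preparations are bulk, so RNA from fewer cells and less RNA per cell cannot be told apart.

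**Figure D1:**
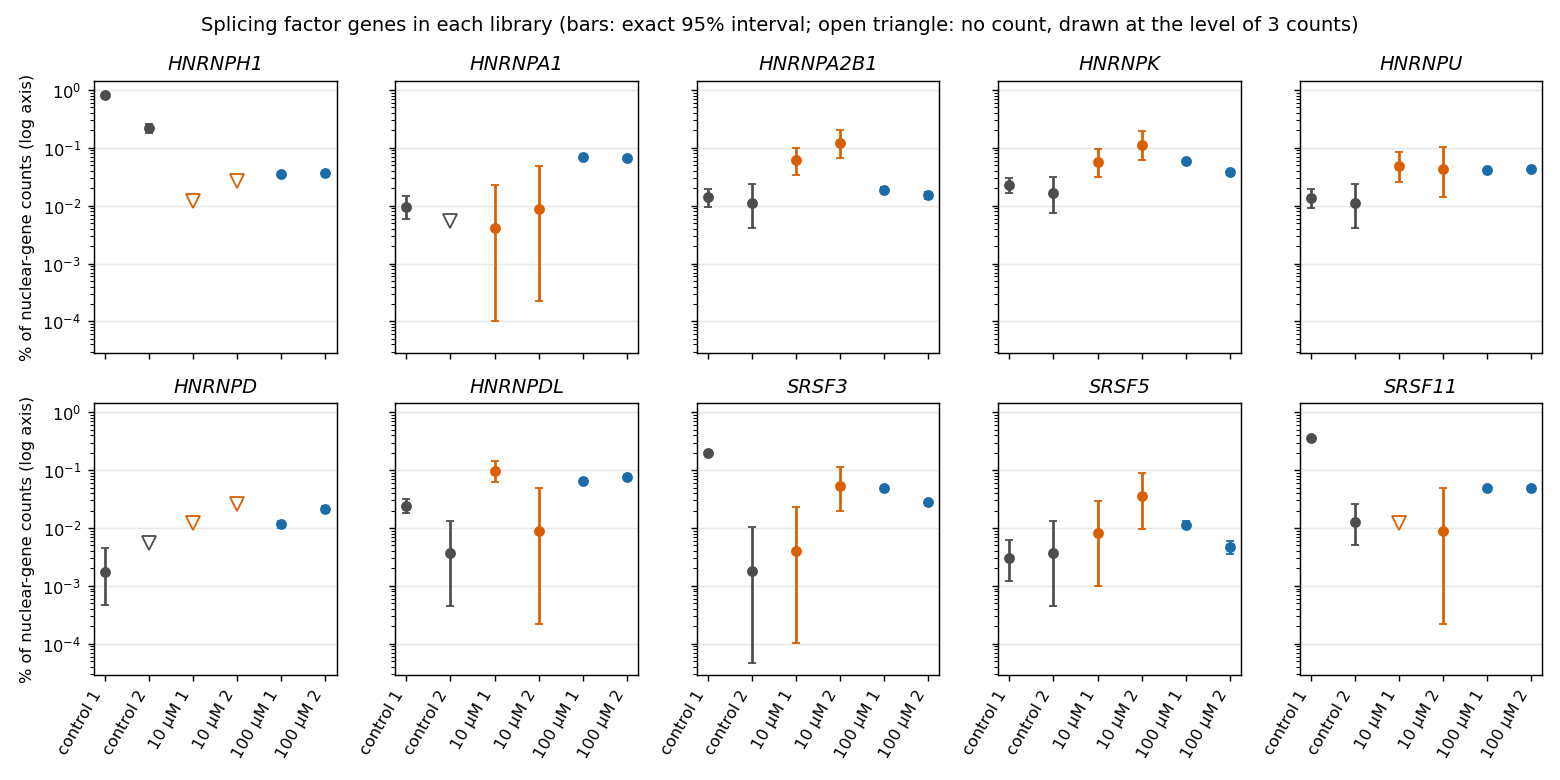
Percent of nuclear-gene counts (log axis) for each of the 10 genes in the 6 libraries, with exact 95% binomial intervals. Open triangles mark libraries without a count and stand at the level of 3 counts. HNRNPH1 is highest in both controls (0.834% and 0.217%) and empty at 10 µM, SRSF3 and SRSF11 are high in control 1 alone, and HNRNPA2B1 is highest at 10 µM.

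SRSF11 and SRSF3 stood beside HNRNPH1 in the first control only. SRSF11, an SR-related protein found with early spliceosomes, had 829 and 7 counts with DMSO, 0 and 1 with 10 µM and 1011 and 644 with 100 µM GenX. SRSF3, the smallest SR protein, which also acts in export of mRNA, had 457 and 1 counts with DMSO, 1 and 6 with 10 µM and 1032 and 359 with 100 µM GenX. In share of nuclear counts the controls differed 28.0-fold for SRSF11 (13.5 to 70.0) and 108-fold for SRSF3 (19.3 to 4283), the last resting on 1 count. For both genes the control group spanned the 100 µM group, so the direction depended on the control library chosen.

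SRSF11 at 100 µM was 7.31-fold lower than control replicate 1 but 3.84-fold higher than control replicate 2 (1.86 to 9.56). SRSF3 at 100 µM was 4.79-fold lower than replicate 1 and 22.6-fold higher than replicate 2 (4.04 to 892). At 10 µM SRSF11 lay below both controls, with 1 count over both libraries: 4.61-fold lower than control replicate 2, with an interval of 0.593 to 208 that includes no difference. SRSF3 at 10 µM was 10.2-fold lower than control replicate 1 (4.90 to 25.5) and 10.6-fold higher than replicate 2 (1.36 to 479). Of 2926 nuclear genes with at least 10 control counts, 148 (5.06%) had a share over 10-fold higher in control replicate 1 than in replicate 2, with values under 3 counts in replicate 2 raised to 3. SRSF3 and SRSF11 were 2 of these, among the 8 splicing factor genes with that many control counts, and all 8 had the higher share in replicate 1, as did 1782 of the 2926 nuclear genes (60.9%).

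**Figure D2:**
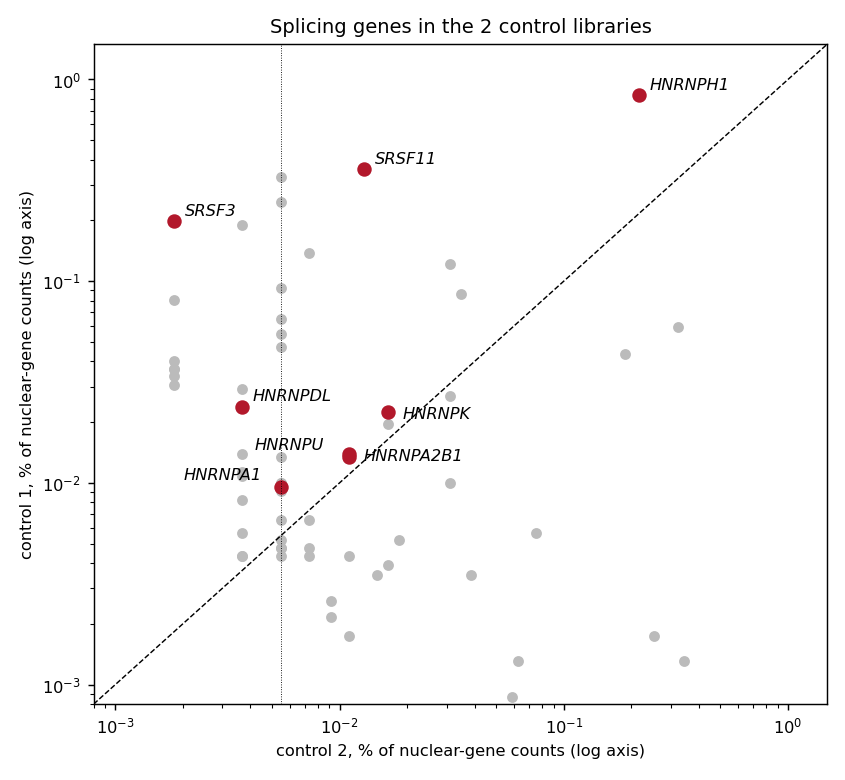
Share of nuclear-gene counts in control replicate 1 (y axis) against control replicate 2 (x axis), both on log axes, for splicing genes with at least 10 counts over the controls. Red points are 8 of the 10 genes and grey points the other splicing lists; the dashed line marks equality and the dotted line the level of 3 counts in control 2, where genes without a count there are drawn. SRSF3 lies 108-fold and SRSF11 28.0-fold above equality, HNRNPH1 3.85-fold.

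The other 7 genes were described first by their sum. Together they held 0.0882% and 0.0459% of nuclear counts with DMSO, 0.277% and 0.333% with 10 µM and 0.276% and 0.265% with 100 µM GenX, so in this sum both dose groups lay above both controls, which does not hold for each of the 7 genes. All 10 genes summed to 1.48% and 0.277% with DMSO, 0.282% and 0.395% with 10 µM and 0.409% and 0.379% with 100 µM GenX, so the 10 µM libraries lay within the range of the controls and overlapped the 100 µM libraries too. As a percent of all counts, mtDNA genes included, the same sums were 1.42% and 0.248% with DMSO, 0.158% and 0.153% with 10 µM and 0.395% and 0.366% with 100 µM GenX, and on that scale both 10 µM libraries were below all the others. HNRNPH1, SRSF3 and SRSF11 supplied 94.0% and 83.4% of these counts with DMSO, 1.45% and 15.6% with 10 µM and 32.7% and 30.0% with 100 µM GenX. The leading gene was HNRNPH1 in both controls, HNRNPDL and HNRNPA2B1 in the 10 µM libraries, and HNRNPA1 and HNRNPDL in the 100 µM libraries.

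**Figure D3:**
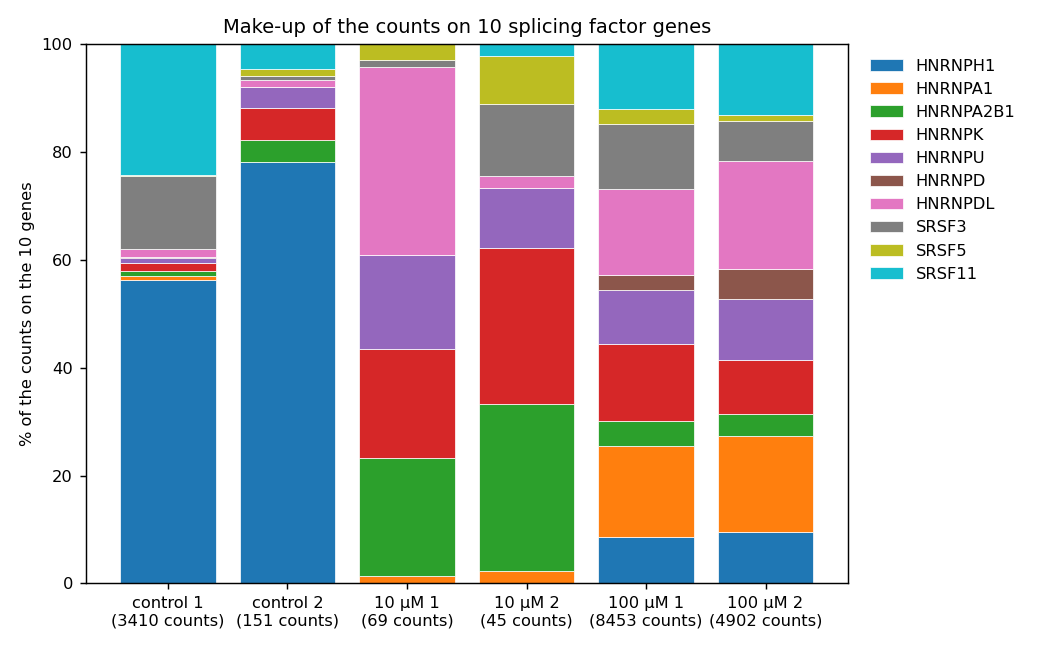
Make-up of the counts on the 10 genes in each library, as a percent of those counts; the number of counts stands under each bar (3410 and 151 with DMSO, 69 and 45 with 10 µM, 8453 and 4902 with 100 µM GenX). HNRNPH1 takes 8.54% and 9.55% with 100 µM GenX, against 56.3% and 78.1% with DMSO.

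HNRNPA2B1, a core protein of the hnRNP particle that also sorts RNA for transport, had 32 and 6 counts with DMSO, 15 and 14 with 10 µM and 387 and 198 with 100 µM GenX. Its share was 0.0139% and 0.0110% with DMSO, 0.0612% and 0.123% with 10 µM and 0.0187% and 0.0153% with 100 µM GenX. The 10 µM libraries stood above all the others, 6.05-fold over the pooled controls (3.60 to 10.1), and the 100 µM libraries were 4.64-fold lower than the 10 µM ones (3.08 to 6.73). Against the controls the 100 µM pooled share was 1.31-fold (0.940 to 1.86), an interval that includes no difference.

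HNRNPK, which binds C-rich RNA and DNA, had 52 and 9 counts with DMSO, 14 and 13 with 10 µM and 1211 and 488 with 100 µM GenX. HNRNPU, which attaches RNA to the chromatin scaffold, had 31 and 6 counts with DMSO, 12 and 5 with 10 µM and 846 and 553 with 100 µM GenX. Both genes were above both controls at both doses. HNRNPK was 3.51-fold higher at 10 µM (2.14 to 5.61) and 2.36-fold higher at 100 µM (1.83 to 3.10) than in the pooled controls. HNRNPU was 3.64-fold higher at 10 µM (1.92 to 6.63) and 3.21-fold higher at 100 µM (2.31 to 4.57). The fitted log2 fold changes at 10 µM against control, 0.74 for HNRNPK and 0.70 for HNRNPU, turned negative with a filter of at least 5 CPM and without control replicate 2, and for HNRNPU also without 10 µM replicate 1. Between the doses the scale decides the direction: at 100 against 10 µM HNRNPU averaged 404 ± 12.8 against 223 ± 74.4 CPM, but 0.0419% ± 0.00124 against 0.0464% ± 0.00363 of nuclear counts (SD, n = 2 each).

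HNRNPA1, an abundant shuttling hnRNP that acts against SR proteins at many exons, had 22 and 0 counts with DMSO, 1 and 1 with 10 µM and 1430 and 874 with 100 µM GenX. HNRNPD, also known as AUF1, which binds AU-rich elements in short-lived mRNA, had 4 and 0 counts with DMSO, 0 and 0 with 10 µM and 238 and 274 with 100 µM GenX. HNRNPD was at or near 0 outside the 100 µM libraries, and HNRNPA1 had more than 1 count outside them only in control replicate 1. Depth limits the HNRNPD zeros at 10 µM. The 100 µM shares would have given 2.82 and 5.19 HNRNPD counts in the first 10 µM library and 1.31 and 2.42 in the second. HNRNPA1 at 100 µM was 8.88-fold above the pooled controls (5.85 to 14.2) and 12.3-fold above the pooled 10 µM libraries (3.41 to 102, from 2 counts). HNRNPD at 100 µM was 10.9-fold above the pooled controls (4.21 to 40.0), and no fold could be given at 10 µM against control, where both groups were near the floor. HNRNPD reached the level needed for testing only in the 100 µM libraries, with 111 and 205 CPM against 16.6 and 0 CPM with DMSO and 0 and 0 with 10 µM. HNRNPA1 reached it there and in control replicate 1. For both genes, being higher at 100 µM was thus partly built into being tested.

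HNRNPDL, a close relative of HNRNPD, had 55 and 2 counts with DMSO, 24 and 1 with 10 µM and 1339 and 984 with 100 µM GenX. Within each of the 2 shallower groups the first library was well above the second, 6.51-fold in the controls (1.72 to 55.1) and 11.2-fold at 10 µM (1.82 to 459). The pooled ratio of 3.48 at 10 µM against control therefore rested on the first 10 µM library, and the groups overlapped. At 100 µM the gene was 3.45-fold above the pooled controls (2.66 to 4.58), above each of them. SRSF5, an SR protein induced by insulin in rat liver cells, was the sparsest of the 3 SR genes, with 7 and 2 counts with DMSO, 2 and 4 with 10 µM and 237 and 60 with 100 µM GenX. Its 100 µM libraries differed 2.48-fold from each other (1.86 to 3.34), and the pooled ratio to the controls was 2.80 (1.45 to 6.18).

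Per kilobase of exon, as CPM of nuclear counts, the order of levels changed with dose. In the controls HNRNPH1 led with 554 ± 461, followed by SRSF11 with 220 ± 290 and SRSF3 with 141 ± 195 (SD, n = 2), and neighbours in this order overlapped down to HNRNPU. At 10 µM HNRNPK led with 167 ± 78.6, HNRNPA2B1 followed with 122 ± 57.7, and the first 6 genes overlapped with their neighbours. At 100 µM HNRNPA1 with 134 ± 2.39 and HNRNPDL with 129 ± 14.4 overlapped with each other and stood above HNRNPK with 94.2 ± 28.96. Below them SRSF11 with 58.3 ± 0.667 and SRSF3 with 54.6 ± 22.1 overlapped, and HNRNPH1 was sixth with 37.5 ± 0.892, apart from both its neighbours.

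The fit across all genes (edgeR quasi-likelihood, Benjamini-Hochberg adjusted p below 0.05) gives the background for these values. Calls among the 10 are given here and below as description only, since the 10 were chosen with these data known. At 10 µM against control 0.597% of tested genes were called, 0.22% higher and 0.377% lower, and of the 10 genes HNRNPH1 was called lower. Without 10 µM replicate 1 HNRNPH1 was not called (adjusted p = 0.0540 in edgeR, where 0.0604% of genes were called). At 100 µM against control 0.0% of genes were called, although 575 had an unadjusted p below 0.05, and at 100 against 10 µM 2.86% were called, 0.755% higher and 2.11% lower, with none of the 10 in either comparison. DESeq2 called far more genes in general, 25.4% of those with an adjusted p at 10 µM against control, 7.5% at 100 µM against control and 17.1% at 100 against 10 µM. Among the 10 it called HNRNPH1 and SRSF11 lower and HNRNPA2B1 higher at 10 µM against control, HNRNPH1 lower at 100 µM against control, and HNRNPA2B1 lower at 100 against 10 µM.

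The calls also moved with single libraries, as did the share of all genes called. Without control replicate 2, edgeR called HNRNPH1, SRSF3 and SRSF11 lower at 10 µM against control (12.6% of genes tested) and at 100 µM against control (3.13%), and HNRNPH1, HNRNPA1 and SRSF11 higher at 100 against 10 µM (18.6%). Without control replicate 1, it called HNRNPH1 lower at 10 µM against control (12.8%), HNRNPA1 higher at 100 µM against control (3.88%), and HNRNPH1, HNRNPA1 and SRSF11 higher at 100 against 10 µM (36.1%). Without 10 µM replicate 2, HNRNPH1 was called higher at 100 against 10 µM (3.13%). With the replicate block HNRNPH1 was called at 10 µM against control (2.3% of genes), at 100 µM against control (0.692%) and at 100 against 10 µM (4.31%).

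Groups failed to overlap very often in these libraries. In share of nuclear counts, 4 of the 10 genes were higher and 2 lower without overlap at 10 µM against control, where 43.8% of tested genes did not overlap, 12.1% higher and 31.7% lower. At 100 µM against control 7 were higher and 1 lower, where 58.2% of tested genes did not, 47.8% higher and 10.4% lower, and at 100 against 10 µM 4 were higher and 2 lower, where 71.8% did not, 63.1% higher and 8.65% lower. For the 10 and for all tested genes, a library without a count was taken here as a share of 0. HNRNPD was among the 4, although its 100 µM shares, 0.0115% and 0.0212%, lay below the 0.0263% floor of 10 µM replicate 2. HNRNPD and HNRNPA1 were among both the 7 and the 4, and both were tested through their 100 µM counts. These counts of genes and the medians below therefore carry that selection. The median fitted log2 fold change of the 10 was -0.30 at 10 µM against control, beside -3.17 for all tested genes. It was 0.69 at 100 µM against control, beside 0.36, and 1.11 at 100 against 10 µM, beside 3.52. With genes lacking counts in a group set at their bound, these medians were 0.35, 0.69 and 1.11 for the 10. For all tested genes the bounds gave -0.63, 0.28 and 1.21, so at 100 against 10 µM the 10 lay close to all genes.

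The wider splicing machinery was read from 5 lists of 99 genes in all, of which 62 were tested. None passed at 10 µM against control, at 100 µM against control or at 100 against 10 µM in edgeR. An unadjusted p below 0.05 was held by 16, 4 and 9 of the 62, beside 894, 575 and 1152 of all 3180 tested genes. DESeq2 called 8 of 39 list genes with an adjusted p at 10 µM against control (20.5%, beside 25.4% of all genes), 1 of 61 at 100 µM against control (1.64%, beside 7.5%) and 3 of 41 at 100 against 10 µM (7.32%, beside 17.1%). Without control replicate 1 edgeR called 6, 3 and 19 of 44 list genes in these comparisons (13.6%, 6.82% and 43.2%, beside 12.8%, 3.88% and 36.1% of all genes). Without control replicate 2 it called 18, 5 and 21 of 81 (22.2%, 6.17% and 25.9%, beside 12.6%, 3.13% and 18.6%). The median log2 fold change of the 62 was -2.38 at 10 µM against control, 0.33 at 100 µM against control and 2.74 at 100 against 10 µM, beside the medians of all genes of -3.17, 0.36 and 3.52. With genes lacking counts in a group set at their bound, the medians of the 62 were -2.10, 0.33 and 1.94. For all genes the bounds gave -0.63, 0.28 and 1.21, so the order of the 62 and all genes turned around in each comparison.

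Among the lists, 12 tested hnRNP genes outside the 10 had a median log2 fold change of -1.99 at 10 µM against control, 9 other SR and SR-related genes -1.79, 20 spliceosome core genes -2.32, and 18 other RNA-binding regulators -3.31. At 100 µM against control these medians were 0.66, 1.16, 0.96 and -0.21. The 3 tested SR protein kinase genes had -2.30 and -0.37. The most abundant gene of each list was also read library by library. RBMX, an hnRNP encoded on the X chromosome, had 4 and 138 counts with DMSO, 0 and 0 with 10 µM and 277 and 122 with 100 µM GenX. TRA2A, which activates exons through purine-rich enhancers, had 569 and 0 counts with DMSO, 0 and 0 with 10 µM and 454 and 243 with 100 µM GenX. The first control held nearly all TRA2A counts of its group and the second nearly all RBMX counts.

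SNRPB, which encodes Sm proteins of the spliceosomal ribonucleoproteins, had 100 and 102 counts with DMSO, 0 and 1 with 10 µM and 728 and 348 with 100 µM GenX. RBM39, a U2AF-related splicing factor, had 199 and 19 counts with DMSO, 1 and 3 with 10 µM and 5101 and 3014 with 100 µM GenX. Neither passed the test. In pooled share SNRPB was 25.5-fold lower at 10 µM than in the controls (4.52 to 1011, from 1 count, edgeR adjusted p = 0.124). RBM39 had a log2 fold change of -3.66 at 10 µM against control (SE 1.32, edgeR adjusted p = 0.148) and of 4.95 at 100 against 10 µM (SE 1.38, edgeR adjusted p = 0.0842). CLK3, a kinase of SR proteins, had 23 and 17 counts with DMSO, 2 and 1 with 10 µM and 303 and 347 with 100 µM GenX.

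**Figure D4:**
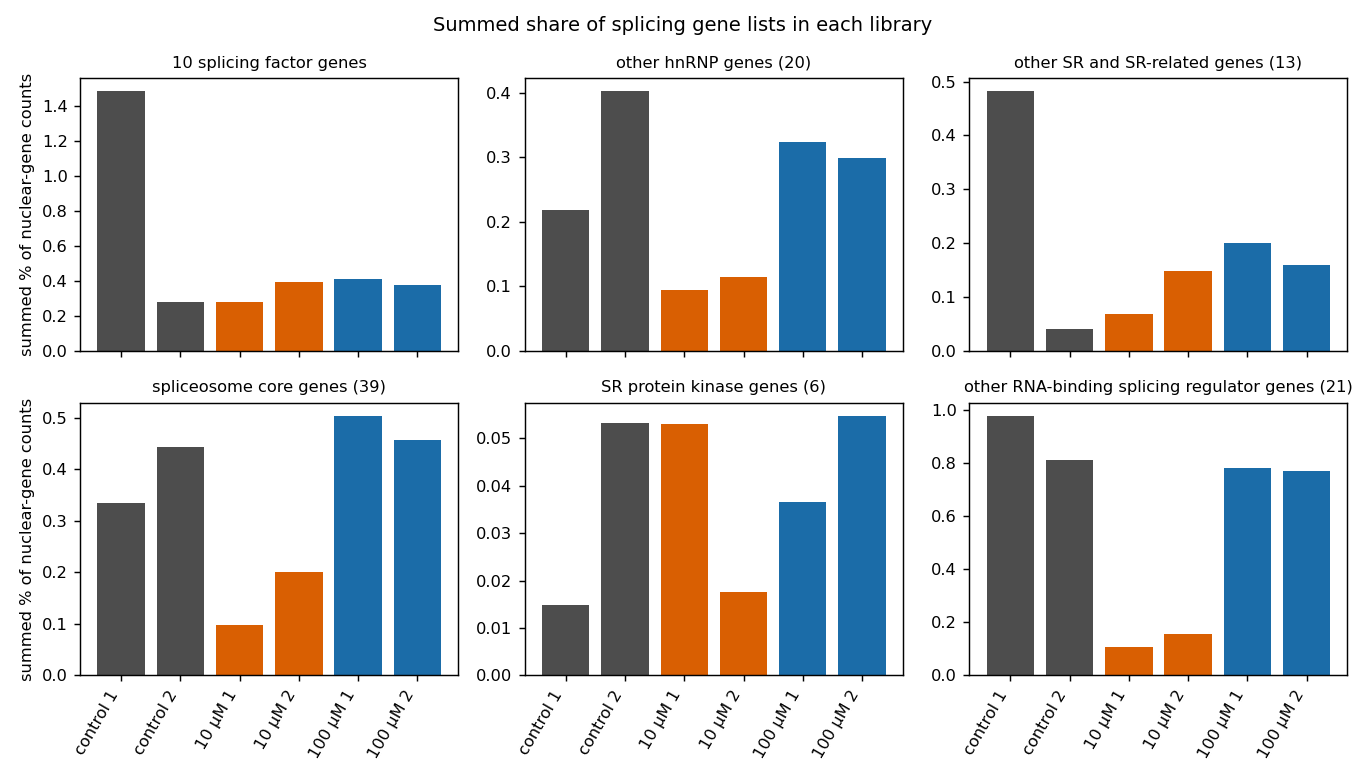
Summed percent of nuclear-gene counts of the 10 genes and of 5 other splicing lists in each library, each panel on its own axis from 0, with the number of listed genes in brackets. The 10 genes reach 1.48% in control 1 against 0.277% to 0.409% elsewhere. The other hnRNP, spliceosome core and RNA-binding regulator lists are lowest in the 10 µM libraries.

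Across the 6 libraries the genes most like HNRNPH1, by Pearson's r of log2 CPM among 3040 tested nuclear protein-coding genes, were GOLIM4 (r = 0.999), AKAP12 (0.998), WTAP (0.998), ARGLU1 (0.996) and FLCN (0.995). WTAP, for example, had 456 and 25 counts with DMSO, 0 and 0 with 10 µM and 345 and 163 with 100 µM GenX. AKAP12 was the most abundant of them, with 2076 and 235 counts with DMSO, 3 and 2 with 10 µM and 3679 and 2053 with 100 µM GenX. These r values describe 6 libraries that fall into 3 dose groups of unequal depth, and 219 of the 3040 genes (7.20%) had r above 0.9, 186 of them without a count at 10 µM. Among the 10 genes SRSF11 was most like HNRNPH1 (r = 0.859), and HNRNPA2B1 was the most opposite (r = -0.935).

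Near copies and overlapping genes bear on some of these rows, since how reads with several matches were assigned is not given in the sources used here. HNRNPA1 has 76 annotated copies in the tables, 74 of them typed as pseudogenes, and 11 held counts. Their sum was 10 and 2 with DMSO, 15 and 0 with 10 µM and 49 and 121 with 100 µM GenX, against 22 and 0, 1 and 1, and 1430 and 874 for HNRNPA1 itself. In the first 10 µM library the copies thus held more counts than the gene, and the HNRNPA1 level there is uncertain. HNRNPA1P54 accounted for 15 and 87 of the copies' counts at 100 µM, HNRNPA1P48 for 23 and 23 and HNRNPA1P3 for 6 and 10. HNRNPH2, the X-linked paralog of HNRNPH1, had 3 and 2 counts with DMSO, 3 and 1 with 10 µM and 189 and 82 with 100 µM GenX, so it was present in both 10 µM libraries where HNRNPH1 was not. Pseudogenes of HNRNPH1, HNRNPK, HNRNPU, HNRNPD and HNRNPDL held 1, 5, 1, 0 and 1 counts over all libraries.

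CBX3, whose gene runs from the same region as HNRNPA2B1 on the opposite strand, had 2 and 0 counts with DMSO, 1 and 0 with 10 µM and 199 and 28 with 100 µM GenX. The libraries were stranded per the labels, but the counting's strand setting is not given in the sources used here, so reads of the overlapping stretch cannot be told apart. COX20, opposite HNRNPU, had 58 counts in all, the antisense AC124016.1 at HNRNPD 82, AC078778.2 at HNRNPA1 26 and AL353771.1 at SRSF11 11. All 26 counts of AC078778.2 and all 11 of AL353771.1 were in 100 µM replicate 1.

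The liver line's own markers varied as well. The 10 hepatocyte genes summed to 0.620% and 1.51% of nuclear counts with DMSO, 0.0775% and 0.0351% with 10 µM and 1.14% and 1.12% with 100 µM GenX, with 6 and 6, 7 and 2, and 10 and 9 of them detected. The most abundant, APOA2, had 954 and 454 counts with DMSO, 4 and 2 with 10 µM and 18293 and 11076 with 100 µM GenX, and AFP had none outside the 100 µM libraries. The 10 immune, endothelial and fibroblast genes summed to 0.0226% and 0.0220% with DMSO, 0.0367% and 0.0789% with 10 µM and 0.00421% and 0.00657% with 100 µM GenX. Their sum was thus highest at 10 µM, and in 10 µM replicate 2 it stood above the hepatocyte sum, from 6 counts of COL1A1 and 3 of COL1A2. PTPRC, CD68 and CDH5 were at 0 in every library. The hepatocyte sum, like HNRNPH1, was lowest at 10 µM, whereas HNRNPA2B1, HNRNPK and HNRNPU were not. FGB went the other way, with 4 counts in 10 µM replicate 1 (0.0163%) and 0 in both controls. The markers' part in these differences was not tested.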

How the data were processed

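RNA of isolated HepG2 mitochondria was measured in 6 libraries, 2 per GenX dose. The authors deposited raw read counts per gene, unnormalised, in the featureCounts layout, with an exon length per gene. Per the submitters' processing notes reads were handled with the GRCh38 build and the tools STAR, featureCounts, FastQC and DESeq2. Versions, annotation release, strand setting and handling of multiply mapped reads are not given in the sources used here. Each of these can move counts of copied or overlapping genes. Library preparation was stranded and removed ribosomal RNA, per the labels' protocols.

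The 10 genes and all gene lists were chosen with earlier results of these data known. Symbols came from GENCODE v29 (56898 of 57500 identifiers matched). Groups and replicate numbers came from the sample titles. Levels are percents of counts on the 57465 genes not on mitochondrial DNA, with exact 95% binomial intervals, and ratios of pooled counts carry exact 95% counting intervals. Reads without molecular identifiers are not independent molecules, so intervals and floors cover counting error only. A gene at 0 was set at 3 counts, per library or over the pooled group, and no fold was given where both groups were at or under that floor.

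The test across genes used edgeR 4.0.16 under R 4.3.3: filterByExpr kept 3180 genes, TMM scaled the libraries, and 1 robust quasi-likelihood model with a mean per group took in all 6 libraries, with two-sided tests and Benjamini-Hochberg adjustment at 0.05. The test was also run on simulated counts with the same dispersion for every gene, which these replicates need not share. That run therefore does not vouch for the calls given here. The SE of an edgeR log2 fold change was worked back from the test, as the size of the change over the square root of the F statistic. Log2 CPM for likeness used a prior count of 2. Promoter windows came from the RefSeq table of GRCh38.p14. Tables were handled in Python 3.11.15 with pandas 2.3.3, numpy 2.4.6 and scipy 1.17.1, and plots drawn with matplotlib 3.10.9. An exact permutation test of 2 against 2 libraries cannot go below p = 0.333, so none was used.

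Named were the 10 genes, and from each of 5 splicing lists up to 3 genes that passed or, where none did, the gene with the highest mean CPM. Also named were the 3 copies and the overlapping gene with the most counts per gene, and the 5 genes most correlated with HNRNPH1. MALAT1, NEAT1, KCNQ1OT1 and MEG3 were named as nuclear-retained RNAs. Alternatives were DESeq2 1.42.0, other scalings and filters, only the 4 libraries compared, a replicate block, other denominators and leaving out each library. DESeq2 without a filter was added after the data were seen.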

Additional observations from a re-analysis of the deposited data

How the results depend on the processing

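Counts of called genes depended strongly on the settings. At 10 µM against control, beside 19 genes, DESeq2 called 526, a mean of at least 5 CPM gave 91, the 4 libraries alone 206 and the replicate block 73, while TMM over nuclear genes, library totals alone and no filter gave 7 each, and leaving out 1 library gave 4 to 863. At 100 µM against control, beside 0 in edgeR (575 at an unadjusted p below 0.05), DESeq2 called 220, unfiltered DESeq2 3, DESeq2 size factors 4 and the replicate block 22, and leaving out 1 library gave 0 to 215. At 100 against 10 µM, beside 91, DESeq2 called 374, unfiltered DESeq2 503, TMM over nuclear genes 42, library totals 159, 5 CPM 290, no filter 3, the 4 libraries 269 and the replicate block 137, and leaving out 1 library gave 16 to 1278. The other splicing genes called, 0 in each comparison, became 8, 1 and 3 with DESeq2 in the same order. At 10 µM against control they were 1 with unfiltered DESeq2, 5 with 5 CPM, 2 with the 4 libraries, 1 with the replicate block and 0 to 18 with 1 library left out. At 100 µM against control leaving out 1 library gave 0 to 5. At 100 against 10 µM they were 1 with unfiltered DESeq2, 1 with library totals, 3 with 5 CPM, 3 with the 4 libraries and 0 to 21 with 1 library left out. The cause of these changes was not tested. Same-numbered libraries did not deviate together (correlations 0.0042, 0.0029 and -0.0235). Whether they share more than a number cannot be told from this, since counting noise is large in the shallow libraries. The summed share of the 10 genes, 0.338% ± 0.0799 at 10 µM, 0.394% ± 0.0216 at 100 µM and 0.879% ± 0.851 in the controls (SD, n = 2 each), moved to 0.156% of all counts (0.381% at 100 µM and 0.832% in the controls) and 0.418% of protein-coding counts at 10 µM and to 0.423% of protein-coding counts at 100 µM. With 1 library left out it ran 0.282% to 0.395% at 10 µM, 0.379% to 0.409% at 100 µM and 0.277% to 1.48% in the controls. The fitted direction of HNRNPH1 was the same in every setting run in all 3 comparisons. It was called at 10 µM against control in each of them except without 10 µM replicate 1. HNRNPH1 was chosen with these data known, and all settings refit the same 6 libraries. The repeated call is therefore a description and no independent support. For the 10 genes together, 9 of 56 fits with a library left out changed sign at 10 µM against control, 7 of 56 at 100 µM against control and 8 of 56 at 100 against 10 µM. Depth limits the 10 µM values most, where a share below 0.0122% or 0.0263% rests on fewer than 3 counts.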
